A study of Mus musculus with 18 samples.

Results

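Gene-end proximal regions are stretches of open chromatin whose centre lies within 1 kb of the start or the end of a protein-coding gene. They were found by merging the ATAC-seq peaks of 18 libraries on chromosomes 1 to 19 and X wherever they overlapped by at least 1 bp, and then keeping each merged (union) region with a gene end near its centre on mouse build mm10. Of 33115 union regions, 10097 met this rule. The gene table gave a strand for 17274 of 21631 protein-coding genes (79.9%), so the nearer end could be read as a 5′ end (the transcription start side) for 7590 regions, or 75.2%. It was a 3′ end for 533 regions (5.28%), and the strand of the gene was not given for 1974. Ends of 2 or more genes lay within 1 kb of 1557 regions (15.4%), and 10494 genes had at least 1 such region.

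Promoters carry the sites where RNA polymerase II and the general transcription factors assemble, and in active or poised genes the stretch around the start site is kept free of nucleosomes. In ATAC-seq the Tn5 transposase inserts sequencing adapters into such open DNA, so promoters appear as peaks of reads. Promoters of widely used genes are often CpG islands and tend to be open in many cell types, whereas distal elements (enhancers) differ more between cell types and states.

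The series profiled naive CD4 T cells of untreated C57BL6/J mice, with the genotype given as WT. Cells were sorted into low and high levels of Nr4a1-dsGFP, a green fluorescent reporter of Nr4a1, which is an immediate target of T cell receptor (TCR) signals, so that the levels stand for weak and strong tonic TCR stimulation. Both levels were taken from 3 organs, namely spleen, mesenteric lymph nodes and axillary lymph nodes, and each of the 6 groups had 3 libraries. The labels do not give the age of the mice, the number of mice behind a library, or whether the reporter sits at the Nr4a1 locus or elsewhere. The titles speak of biological replicates and do not say whether different mice were used. The p-values therefore reflect the spread among these libraries, and that spread may be technical.

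The promoter sequences of 7 genes are printed here because the results turn on their regions. Cenpf stands for the regions of highest enrichment, Plxnc1 for a difference between the levels, Rab22a and Sipa1l2 for a difference found in mesenteric libraries, and Tigit, Btla and Eif4b for differences between organs. Each is the RefSeq window of 300 bases (build GRCm38.p6), from 250 bases before to 50 after the start, written 5′ to 3′ on the gene's strand. Capitals mark matches to any of 10 motifs, searched on both strands: the ETS core CCGGAAG, the SP/KLF GC box GGGCGG, the NRF1 core GCATGCG, the YY1 motif AAGATGG, the TATA box TATAAA, the CRE TGACGTC, the AP-1 site TGANTCA, the RUNX site TGTGGT, the NR4A site AAGGTCA and the EGR site GTGGGCG. A match is a description of the letters and not a bound site, and matches to the GC box and the EGR site can overlap.
Cenpf (chr1:189688037-189688336, minus strand): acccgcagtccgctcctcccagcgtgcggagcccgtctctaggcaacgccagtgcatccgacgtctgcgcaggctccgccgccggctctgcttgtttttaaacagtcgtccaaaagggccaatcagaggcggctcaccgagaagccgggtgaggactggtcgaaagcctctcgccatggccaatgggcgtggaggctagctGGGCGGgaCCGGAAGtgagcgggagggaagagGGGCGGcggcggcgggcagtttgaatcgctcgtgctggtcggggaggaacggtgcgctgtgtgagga
Plxnc1 (chr10:94944796-94945095, minus strand): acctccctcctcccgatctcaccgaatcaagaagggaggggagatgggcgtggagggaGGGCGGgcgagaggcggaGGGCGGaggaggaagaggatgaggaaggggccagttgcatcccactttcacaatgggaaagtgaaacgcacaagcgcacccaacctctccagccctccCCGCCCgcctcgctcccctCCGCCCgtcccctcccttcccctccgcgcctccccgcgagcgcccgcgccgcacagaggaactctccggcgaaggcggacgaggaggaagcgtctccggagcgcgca
Rab22a (chr2:173659595-173659894, plus strand): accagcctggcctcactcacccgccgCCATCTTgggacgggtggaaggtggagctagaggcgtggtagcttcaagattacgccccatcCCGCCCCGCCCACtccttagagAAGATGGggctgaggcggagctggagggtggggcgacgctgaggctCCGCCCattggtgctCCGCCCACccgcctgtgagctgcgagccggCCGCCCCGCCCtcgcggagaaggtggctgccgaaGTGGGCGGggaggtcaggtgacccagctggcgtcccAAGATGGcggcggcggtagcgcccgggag
Sipa1l2 (chr8:125569814-125570113, minus strand): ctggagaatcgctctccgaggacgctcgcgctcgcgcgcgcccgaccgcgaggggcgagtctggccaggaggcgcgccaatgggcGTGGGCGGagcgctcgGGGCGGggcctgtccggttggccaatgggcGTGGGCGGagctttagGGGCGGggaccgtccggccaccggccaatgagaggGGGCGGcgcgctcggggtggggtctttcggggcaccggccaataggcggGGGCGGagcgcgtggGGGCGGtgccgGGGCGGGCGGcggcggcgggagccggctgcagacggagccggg
Tigit (chr16:43664135-43664434, minus strand): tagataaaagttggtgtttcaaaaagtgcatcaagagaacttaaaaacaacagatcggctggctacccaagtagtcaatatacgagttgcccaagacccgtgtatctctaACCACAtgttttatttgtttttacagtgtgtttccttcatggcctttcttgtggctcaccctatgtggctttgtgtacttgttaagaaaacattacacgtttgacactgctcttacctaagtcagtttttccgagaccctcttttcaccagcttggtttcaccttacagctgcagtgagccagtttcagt
Btla (chr16:45224087-45224386, plus strand): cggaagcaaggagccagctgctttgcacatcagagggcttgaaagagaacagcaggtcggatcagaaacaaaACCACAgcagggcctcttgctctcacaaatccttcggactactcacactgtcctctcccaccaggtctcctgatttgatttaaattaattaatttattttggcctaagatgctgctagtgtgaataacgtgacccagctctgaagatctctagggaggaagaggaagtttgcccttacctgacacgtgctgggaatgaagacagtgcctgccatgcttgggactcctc
Eif4b (chr15:102073523-102073822, plus strand): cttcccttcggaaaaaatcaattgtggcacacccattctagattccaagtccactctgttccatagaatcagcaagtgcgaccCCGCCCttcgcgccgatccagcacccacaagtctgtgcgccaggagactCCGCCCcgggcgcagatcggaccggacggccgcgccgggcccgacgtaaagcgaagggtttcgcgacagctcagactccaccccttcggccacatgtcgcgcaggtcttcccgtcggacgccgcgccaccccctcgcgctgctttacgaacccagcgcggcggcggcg

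The printed windows fell into 2 kinds of base composition. The windows of Cenpf, Plxnc1, Rab22a, Sipa1l2 and Eif4b were CpG-rich, with GC contents of 66.3%, 69.0%, 70.7%, 78.7% and 65.0%, and held between 27 and 47 CpG dinucleotides. Those of Tigit and Btla, 2 inhibitory receptors of T cells, had GC contents of 41.3% and 49.0% and 5 CpG dinucleotides each. The GC box occurred 9 times in the Sipa1l2 window, 7 times in that of Rab22a, 4 times in that of Plxnc1, and 2 times each in those of Cenpf and Eif4b, against 0 times in those of Tigit and Btla, which held 1 RUNX match each. The Rab22a window also held 3 EGR matches and 3 YY1 matches, and the Sipa1l2 window 2 EGR matches. Of all 21020 promoter windows in the table, 46.7% held a GC box, 14.8% a RUNX match, 10.3% an EGR match and 6.28% a YY1 match.

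The libraries differed in depth in ways that follow the groups. The depth, read from the genome background behind each peak, ranged from 8.48 to 16.6 reads per 10 kb. It was 16.6 ± 0.0549 in mesenteric high libraries (SD, n = 3), 12.2 ± 0.471 in mesenteric low, 13.7 ± 0.441 in spleen high, 12.5 ± 2.40 in spleen low, 9.89 ± 0.308 in axillary high and 9.08 ± 0.541 in axillary low libraries. The fragment length that the peak caller had estimated was 161 to 176 bp in 12 libraries and 216 to 236 bp in the other 6, of which 5 were axillary and 1 was spleen low replicate 3. For the axillary nodes a long fragment estimate and the organ can thus hardly be told apart. Replicates of a group differed in their read numbers at shared gene-end regions by less than counting noise in all 18 pairs. The chi-square per region was 0.500 to 0.635, where counting noise alone gives about 1. Pairs from different groups reached 0.588 to 0.924, also below 1. The cause was not tested. The limma tests below rest on this narrow spread, so their p-values may be too small and their calls too many. No pair stood out as 1 library deposited more than 1 time, and all 18 libraries were kept.

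Gene-end regions were found again from library to library far more often than other regions. A peak was present in all 18 libraries at 5614 of the 10097 gene-end regions (55.6%), against 3142 of 23018 other regions (13.7%). Regions seen in 1 library made up 7.26% of gene-end regions and 24.2% of other regions. Within a library, 63.4% to 80.0% of its gene-end regions were present in all of the other 17, against 22.4% to 43.9% of its other regions. The difference was 37.7 percentage points ± 1.97 (SD, n = 18), above 0 in 18 of 18 libraries. The regions counted were the same 5614 and 3142 in every library, so these differences vary only with each library's number of regions. An exact two-sided sign-flip permutation test gave its smallest p, 7.63e-06 over libraries and 0.0313 over the 6 group means. With the shared counts fixed, neither p is a test of reproducibility.

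Among regions with a known strand, stability was found mostly at the start side of genes. The 1974 regions without a given strand could not be placed on a side, and 1013 of them (51.3%) were in all 18 libraries. Of regions nearer a 5′ end, 59.7% were in all 18 libraries, while 72 of the 533 regions nearer a 3′ end were (13.5%), about the level of regions away from gene ends. Within libraries the reproducible share was 38.1 points ± 4.26 higher for 5′ than for 3′ regions (SD, n = 18). The exact sign-flip permutation p was 7.63e-06, the smallest possible. It is no test of stability either, since every library shares the same 4529 and 72 regions. Regions that lay at the ends of 2 or more genes were in all 18 libraries in 64.6% of cases, against 54.0% for those at the end of 1 gene. Libraries of the same group shared their gene-end regions with a Jaccard index (shared over combined) of 0.838 to 0.893, and libraries of different groups with 0.781 to 0.872, while for other regions the ranges were 0.544 to 0.633 and 0.445 to 0.576.

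**Figure D1:**
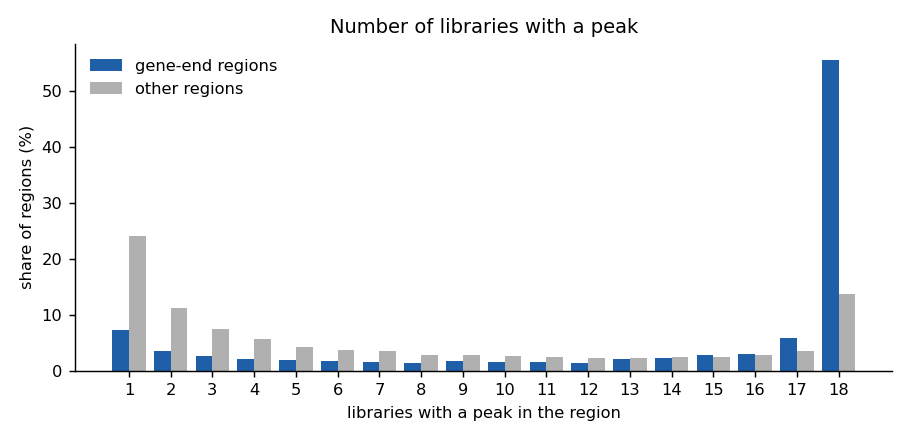
Number of libraries, of 18, that hold a peak at a region (x axis), against the percentage of regions (y axis), for 10097 gene-end regions (blue) and 23018 other regions (grey). Gene-end regions pile up at 18 libraries (55.6%), and other regions lie mostly at few libraries (24.2% at 1).

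Beyond 250 bp stability fell with distance from the gene end. With the centre within 100 bp of an end, 61.7% of 4585 regions were in all 18 libraries, and from 100 to 250 bp 62.8% of 2875 were. The share was 49.1% from 250 to 500 bp, 28.3% from 500 to 750 bp and 23.6% from 750 to 900 bp. Just inside the limit, from 900 to 1000 bp, 20.2% of 208 regions were in all 18, and their median width was 391 bp and median fold 6.48. Just outside it, from 1000 to 1100 bp, 20.9% of 196 were, at a median width of 351.5 bp and fold of 6.16. Values on both sides of the limit of 1 kb thus lay close together.

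Gene-end regions were wider and more strongly enriched than other regions. The median union width was 647 bp (quartiles 469 and 810) against 359 bp, and the median of the deposited fold, the authors' ratio of reads at the summit to the local background averaged over the libraries with a peak, was 8.45 against 6.45. Since a union grows with the peaks merged into it, single peaks were compared within libraries. There the median gene-end peak was 463 bp ± 28.3 wide and the median other peak 296 bp ± 35.9 (SD, n = 18). The difference was 166 bp ± 26.2, and the log2 ratio of the median folds was 0.39 ± 0.06, both above 0 in 18 of 18 libraries (exact sign-flip permutation p = 7.63e-06, the smallest possible). Over the 6 group means the same exact test gave p = 0.0313 for both, also its smallest. Many regions are shared between libraries, so these differences are not independent of each other. Peaks nearer a 5′ end were 171 bp ± 32.8 wider than those nearer a 3′ end, with a log2 ratio of folds of 0.44 ± 0.08, again in 18 of 18 libraries. The fold, a mean over peaks, was higher at stable regions: its median was 5.52 for gene-end regions in 1 library and 10.8 for those in all 18.

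**Figure D2:**
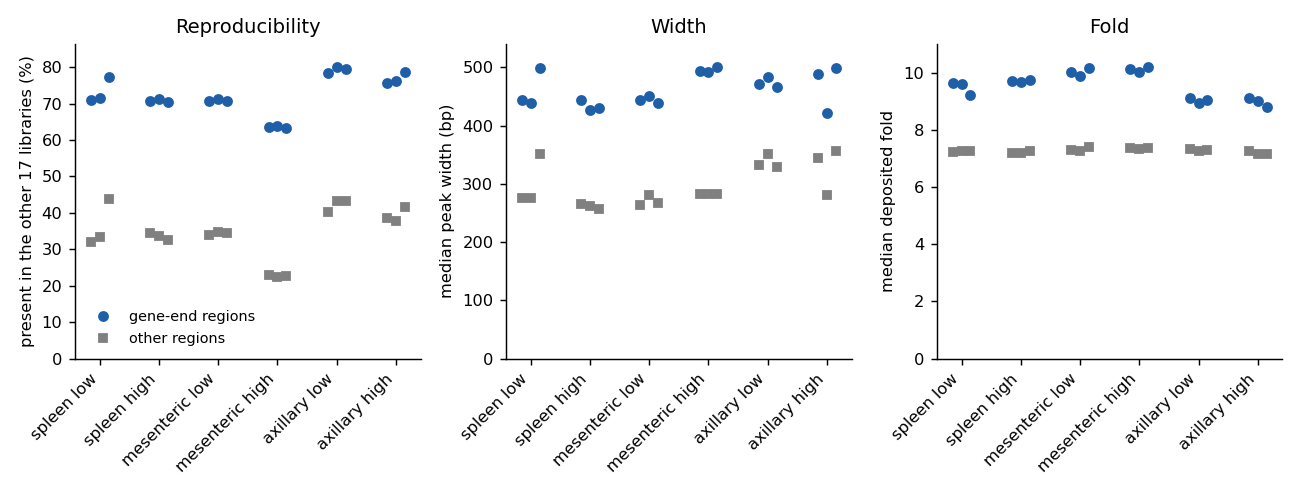
Share of a library's regions that are present in the other 17 libraries (left, percent), median peak width (middle, bp) and median deposited fold (right), for gene-end (blue circles) and other regions (grey squares), with 1 point per library and the 6 groups on the x axis. In each of the 18 libraries the gene-end value lies above the other value in all 3 panels, and the mesenteric high libraries have the lowest reproducible shares.

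The most enriched gene-end regions belonged to genes of several functions. Among those in all 18 libraries the highest mean folds were 21.2 ± 1.30 at 2610044O15Rik8, 20.6 ± 1.54 at Sel1l, a part of the machinery that removes misfolded proteins from the endoplasmic reticulum, and 20.5 ± 2.33 at Cenpf (SD, n = 18). Cenpf, whose window is printed above, encodes a kinetochore protein, and its region at chr1:189687935-189688527 covered the start. Tmem218, M6pr (a mannose-6-phosphate receptor), Cops4 (a COP9 signalosome subunit), Rrs1 (a ribosome biogenesis factor) and Scai followed, down to 19.5. The widest region, 2037 bp at Vim, the intermediate filament vimentin, had a mean fold of 5.51, so width and enrichment did not go together there. Kmt2e (2000 bp), Gm20783 (1995 bp, at a 3′ end) and Hsp90ab1 (1983 bp) came next, before Rpl7, Nrip1, Rev3l and Ube2d3 (1732 bp).

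Summits lay on the start sites. For 5′ regions in all 18 libraries, the median distance from the gene start to the summit was −5.5 bp (upstream is negative), and 76.1% of summits lay within 150 bp. The offset widened as stability fell, to a median of 34 bp with 65.3% within 150 bp for regions in 2 to 17 libraries. For those in 1 library it was 115 bp, with 35.1% within 150 bp.

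**Figure D3:**
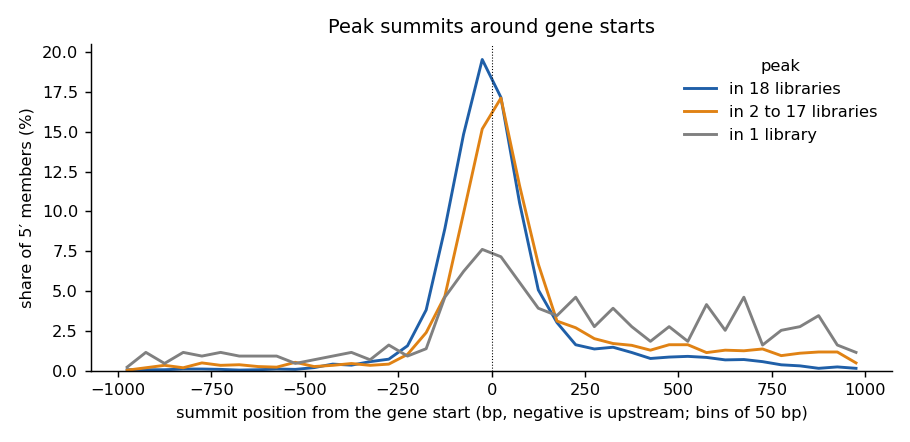
Distance of the peak summit from the gene start in bp (x axis, negative upstream) against the percentage of 5′ regions (y axis), for regions in 18, in 2 to 17 and in 1 library. The summits of regions in 18 libraries centre on the start (median −5.5 bp), and those of regions in 1 library are spread (35.1% within 150 bp).

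Promoter windows under open regions were richer in CpG than windows without one, whether or not the region was stable. Among windows overlapped by gene-end regions in all 18 libraries (5652 windows), the median GC content was 63.0% and the median ratio of observed to expected CpG was 0.834, above 0.6 in 87.4% of windows. Among the 11307 windows without any region these values were 50.7%, 0.265 and 19.5%. The GC box was present in 73.9% of the former and 26.1% of the latter, the ETS core in 23.9% and 3.45%, and the TATA box in 4.97% and 18.9%. In GC content and GC box, windows under less stable regions lay nearer to the former, with a median GC content of 61.0% and a GC box in 65.4% for gene-end regions in 2 to 17 libraries, and 62.0% and 66.5% for those in 1 library. Windows overlapped by other regions had 62.0% and 66.4%. The CpG ratio was above 0.6 in 75.2%, 57.1% and 71.2% of these 3 sets of windows, and the ETS core was present in 19.5%, 9.36% and 15.3%. On these 2 measures the windows of regions in 1 library lay further from those of stable regions. Windows were found for 79.4% of the gene-end regions in all 18 libraries, under the 80% set for a check of base composition over a set, so this describes windows and is no check over the regions.

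The share of regions present in all 18 libraries varied from list to list, and these differences were not tested. Of the 33 gene-end regions at 39 cytosolic ribosomal protein genes, 24 were in all 18 libraries, with a median fold of 9.45, and of the 20 at 25 genes of general transcription and RNA processing 14 were, with 8.49. Among 32 regions at 30 genes of TCR signal and activation, 9 were in all 18 (median fold 6.11), and among 27 at 30 negative regulators of TCR signal 12 were (6.69). The TCR complex and its proximal signalling had 7 of 21 (6.82), naive and quiescence genes 9 of 16 (7.01), T helper and regulatory T cell factors 8 of 17 (6.83), retinoic acid and TGF-beta genes 7 of 15 (6.66), and the interferon response 10 of 17 (8.14). Homing and chemokine receptor genes had 2 of 14 (6.60). Across all gene-end regions the values were 55.6% in all 18 and a median fold of 8.45.

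The label was checked at naive CD4 T cell genes. Ccr7, the lymph node homing receptor, had one in 18 libraries. Cd3e, a chain of the TCR complex, had regions in 14 and in 4 libraries, Cd4 in 7 and the TCR kinase Lck in 1. Tcf7 and Lef1 had none, so gene-end regions alone showed only part of the naive T cell genes. Markers of other cell types were rarer: of 50 genes on 7 lists, 16 had a gene-end region, and of the 18 regions 1 was in all 18 libraries, that of Cd8b1 on the CD8 T cell list. No marker region of B cells (3 regions), NK cells (3), myeloid cells (5), dendritic cells (2), erythroid cells (3) or stromal cells (1) was in all 18 libraries.

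High libraries held more gene-end regions than low libraries, and even more regions elsewhere. The number of gene-end regions with a peak was 7136, 7935 and 8853 (lowest, median and highest) in the 9 high libraries and 7019, 7848 and 7949 in the 9 low libraries. The ranges overlapped, and axillary libraries held few regions at either level. Means were 8016 ± 665 and 7556 ± 419 (SD, n = 9 each), and differed by 460 (exact permutation of levels within organs, p = 0.001, adjusted over 7 measures 0.0035). Other regions rose by 1967 (p = 0.00975 by the same exact test). The gene-end share of a library's regions was therefore lower in high libraries, at 44.1% ± 4.10 against 47.3% ± 1.95, a difference of −3.21 points (exact permutation p = 0.0165, adjusted 0.0193).

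The mesenteric libraries carried most of that difference in share. There it was 38.8% ± 0.283 (SD, n = 3) at the high level and 46.4% ± 0.171 (SD, n = 3) at the low level, which gives −7.60 points, while the spleen gave −0.98 and the axillary nodes −1.06. Within 1 organ, 3 libraries against 3 cannot give an exact permutation p under 0.1. The mesenteric minus spleen difference between these effects was −6.62 points (exact permutation p = 0.055, adjusted 0.15), so the effects were not shown to differ between organs. Without the mesenteric libraries the difference in share was −1.03 points (exact permutation p = 0.33). The depth moved with the level too, at 13.4 against 11.3 reads per 10 kb (exact permutation p = 0.00725). When every library was reduced to its strongest 14372 peaks, the length of the shortest list, the share differed by 0.0158 points (p = 0.93 by the exact test) and the number of gene-end regions by 7.78 (p = 0.77 by the exact test). With lists of equal length, neither difference passed the test. With reads thinned to the depth of the shallowest library, both kept their sign and passed. The share then differed by −2.01 points (exact permutation p = 0.021) and the number of gene-end regions by 237 (p = 0.00125 by the exact test).

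Presence of a peak gave no gene-end region that differed between the levels after adjustment. Of 5737 union regions in 6 to 12 libraries, 1112 were gene-end regions, and Fisher's exact test with Benjamini-Hochberg adjustment called 0 of them (0% of all regions tested), with a smallest adjusted p of 0.382. At an unadjusted p under 0.05 there were 54 with more high libraries (4.86%), against 5.84% of all regions tested, and 0 with more low libraries, against 0.261%. The share of gene-end regions was thus near or under that of all regions. The smallest p belonged to Cytip, a cytoskeletal regulator of lymphocyte adhesion, whose region (chr2:58194518-58194892) was open enough for a call in 7 of the 9 high libraries and in 0 of the 9 low ones. Perp, a p53 target, and Agbl5 had 9 and 2, and Ntn4, Mef2b, Rabl2, Dhx9 and Npm3 had 6 and 0. Among regions with more low libraries, the cytokine genes Ltb and Clcf1 and the heparanase gene Hpse had 2 high and 7 low libraries (unadjusted exact p = 0.0567). The count of 54 rose to between 84 and 112 without any 1 of 10 libraries: 84 and 94 without spleen low replicates 1 and 2, 90 and 84 without spleen high replicates 2 and 3, 86, 84 and 86 without mesenteric low replicates 1, 2 and 3, and 104, 100 and 112 without axillary high replicates 1, 2 and 3. Without the mesenteric libraries it was 6.

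The height of a peak could be compared at regions present in all 18 libraries. The number of reads at each summit was recovered from the deposited fold and −log10 p, and gave exactly 1 whole-number solution for 99.3% of peaks, with a median of 15 reads. For the text these reads were scaled to a common median over shared regions, and differences are on the log2(reads + 1) scale from limma with Benjamini-Hochberg adjustment over all 8756 regions tested, of which 5614 were gene-end regions. The median log2 difference, high minus low, was −0.02 over gene-end regions and −0.01 over other regions.

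High libraries differed from low libraries at 75 gene-end regions. Of these 25 were higher (0.777% of all regions tested were) and 50 lower (0.845% of all regions), which is 0.445% and 0.891% of the gene-end regions tested. The sign was the same in all 3 organs for 69 of the 75. By side, 20 higher and 41 lower regions lay at 5′ ends, and 2 higher and 0 lower at 3′ ends. The split differed with the number of reads at a region: 42 of the 50 lower regions belonged to the third of gene-end regions with the most reads, and 13 of the 25 higher ones to the third with the fewest. The split also depended on scaling: relative to the genome background, which shifted the median of all regions by −0.10 on the log2 scale (from −0.02 to −0.12), 6 were higher and 143 lower, and at equal depth 8 were higher and 5 lower.

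The count rested on many libraries. It was 41 without spleen low replicate 3, 49, 48 and 47 without spleen high replicates 1, 2 and 3, 45, 45 and 48 without mesenteric low replicates 1, 2 and 3, and 38, 35 and 47 without mesenteric high replicates 1, 2 and 3. Without the mesenteric libraries it was 7, of which 5 were higher. With the 6 group means as the unit and organ as a block, 4 regions passed, 3 of them higher: Plxnc1 (limma adjusted p = 0.00657), Grasp (0.0124) and Nr4a1 (0.0172). The fourth lies on chromosome 18, whose regions were counted but not named.

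The region at Plxnc1 was the most raised in high libraries. Plxnc1 encodes plexin C1, a receptor for a semaphorin, and its region (chr10:94944512-94945354) spans the printed window. Scaled summit reads were 21.6, 23.6 and 31.2 (lowest, median and highest) in the 9 high libraries and 10.8, 15.7 and 20.1 in the 9 low libraries. Every high library lay above every low library. The log2 difference was 0.73 ± 0.12 (SE; limma adjusted p = 4.30e-06), with 0.66 in the spleen, 1.11 in the mesenteric and 0.42 in the axillary nodes.

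The cytokine gene Tnfsf11 (RANKL) came next. Its region (chr14:78306861-78307434) had 21.3, 25.9 and 32.8 scaled summit reads in high libraries and 11.8, 19.7 and 32.2 in low libraries, with overlap from the spleen. The difference was 0.57 ± 0.11 (limma adjusted p = 0.000845), and it was 0.08, 0.62 and 1.02 in the spleen, mesenteric and axillary nodes. In the axillary nodes the low libraries had 13.5, 13.5 and 14.2 and the high libraries 31.8, 21.3 and 31.5. Zfhx2, a zinc finger homeobox gene, and Gprc5a, an orphan receptor gene induced by retinoic acid, rose by 0.53 each (limma adjusted p = 0.0101 and 0.00584). Hspb7 and Tspyl2 (0.55 each), Sap18 and Nup155 (0.49 each) completed the most raised.

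Chromosome 14 stood apart. It held 9 of the 25 higher regions and 0 of the 50 lower ones, though it had 210 of the 5614 gene-end regions tested. The median difference over these 210 was 0.11, with 82.4% above 0, against −0.02 and 43.0% for the other chromosomes. The shift was present in each organ, with medians of 0.13, 0.06 and 0.13 in the spleen, mesenteric and axillary nodes, where the other chromosomes had 0.02, −0.04 and −0.04. Tnfsf11 and Zfhx2 lie on this chromosome, and the part of its shift in their values was not tested. Without chromosome 14, 63 regions were called, 17 higher and 46 lower.

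Among the 50 regions lower in high libraries were those of Relb, Cdkn2c and Btc. The region of Relb, an NF-kappaB subunit (chr7:19628375-19629533), had 25.9, 35.0 and 40.1 scaled summit reads in high and 35.4, 43.8 and 52.1 in low libraries. The groups overlapped between 35.4 and 40.1. The difference was −0.35 ± 0.08 (SE; limma adjusted p = 0.00707). Cdkn2c, an inhibitor of cyclin-dependent kinases, fell from 21.6, 29.8 and 33.7 in low to 16.4, 22.5 and 28.7 in high libraries (−0.38, limma adjusted p = 0.0322). Btc, an EGF-family ligand, had the largest decrease (−0.45 ± 0.13, limma adjusted p = 0.0367), before Rrad (−0.42), a small GTPase, and Pbdc1 (−0.37). Among the T helper and regulatory T cell factors, 1 of 8 regions tested was lower and 0 were higher: Prdm1, the repressor Blimp-1, at −0.33 (limma adjusted p = 0.0428).

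The region at the start of Nr4a1, the gene behind the sort, was higher in high libraries. Scaled summit reads at chr15:101253681-101254450 were 128.7, 133.3 and 203.5 in high and 96.4, 115.1 and 136.9 in low libraries, overlapping between 128.7 and 136.9. The difference was 0.36 ± 0.04 (limma adjusted p = 2.70e-11), with 0.26, 0.21 and 0.62 in the spleen, mesenteric and axillary nodes. The region lies in a block of 22 union regions (chr15:101210096-101362896). The block was drawn around regions whose local background reads were at least 10 times those of the genome. At the regions of the block that met this limit they were 10.4 to 127 times those of the genome. The neighbours Grasp and Atg101 in this block also rose, by 0.39 and 0.25 (limma adjusted p = 1.33e-08 and 1.10e-04). On the scale of the deposited fold, which divides by that local background, the axillary differences of Nr4a1, Grasp and Atg101 turned to −0.41, −0.16 and −0.25 and did not pass. Nr4a1 was the only called region among the 9 tested at genes of TCR signal and activation, whose median was 0.03, against −0.02 over all 8756 regions. No region was called at the TCR complex (7 tested, median −0.06), naive and quiescence (9, −0.11), negative regulator (12, −0.06), interferon (10, 0.05) or ribosomal protein genes (24, 0.01), where limma gave 0 at an adjusted p under 0.05. Over all gene-end regions 748 had an unadjusted p under 0.05.

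Within single organs the calls fell mostly in the mesenteric nodes. In the spleen 3 gene-end regions were higher in high libraries (0.0534%, against 0.148% of all regions tested). There 1 was lower (0.0178%, against 0.0571% of all regions). In the axillary nodes 8 were higher (0.1425%, against 0.183% of all regions) and 2 lower (0.0356%, against 0.0571% of all regions). In the mesenteric nodes 8 were higher (0.1425%, against 0.434% of all regions) and 80 lower (1.43%, against 1.04% of all regions). Gene-end regions made up 80 of the 91 lower calls there: 1.43% of gene-end regions were lower, against 0.350% of other regions, and the median difference was −0.04 for gene-end and 0.06 for other regions. Of the 80, 65 belonged to the third of gene-end regions with the most reads, where the median difference was −0.12, against 0.05 in the third with the fewest.

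At the most lowered mesenteric regions named here the levels did not overlap. Rab22a, a small GTPase of endosomes (chr2:173659164-173660129), had 40.3, 38.4 and 43.3 scaled summit reads in mesenteric low replicates 1 to 3 and 22.9, 18.3 and 24.4 in mesenteric high replicates, a difference of −0.91 ± 0.16 (SE; limma adjusted p = 0.000173). Sipa1l2, a Rap GTPase-activating protein (chr8:125569512-125570364), had 34.4, 35.4 and 36.4 against 16.8, 19.8 and 21.3 (−0.88, adjusted p = 0.000777 by limma). These are the printed windows with the most GC box matches. Ski, a co-repressor of TGF-beta signalling, had 49.2, 52.1 and 48.2 against 26.7, 27.4 and 27.4 (limma adjusted p = 3.98e-05), and it was the only region called among 7 tested of the retinoic acid and TGF-beta list. Larp1b, an RNA-binding protein gene, had 78.7, 70.8 and 84.6 against 41.9, 46.5 and 45.7, a difference of −0.80 ± 0.12 (limma adjusted p = 1.58e-06). In each of these 4 regions all mesenteric low libraries lay above all mesenteric high libraries. The regions were named for large differences in these same libraries, so the separation is no further support. Tmem80, Tada1, Dop1b (−0.78) and Xpr1 (−0.72) completed the 8 most lowered.

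Promoter windows of the lowered mesenteric regions had a higher median GC content than those of all stable regions. Windows were found for 66 of the 80 regions (82.5%), with a median GC content of 68.7%, and 86.3% of them held a GC box. For windows of gene-end regions in all 18 libraries these values were 63.0% and 73.9%. The part of base composition in the difference was not tested. Among regions higher in mesenteric high libraries, Plxnc1 rose from 11.8, 10.8 and 12.8 in low to 22.1, 23.6 and 31.2 in high replicates. Hspb7, Gprc5a, Rnaseh2b, H2ac6, Phf12 and Polg2 (0.50) were also higher.

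The mesenteric count depended on every mesenteric library and on depth. It was 41, 47 and 44 without mesenteric low replicates 1, 2 and 3 and 47, 28 and 36 without mesenteric high replicates 1, 2 and 3, against 88 with all. With reads thinned to the shallowest library it was 50, of which 49 were lower, and 32 of the 88 regions were among them. On the scale of the deposited fold it was 12. The spleen count of 4 was 0 without spleen low replicate 2 or spleen high replicate 1, 2 without spleen high replicate 2 and 1 without spleen high replicate 3, and the axillary count of 10 was 6 without axillary high replicate 2. In the spleen the higher regions were Mvb12a (0.99), Trappc2l (0.86) and Ost4 (0.82), and Gng12 was lower (−0.61). In the axillary nodes Tnfsf11, Htatip2, Mybl2, Atf6b, Gpc5, Nr4a1, Grasp and Atg101 were higher, and Zfp131 was lower (−0.55).

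The effect of the level differed between organs at few gene-end regions. The test of the mesenteric minus spleen difference called 19, all lower (0.286% of all regions tested were called in either direction). Prex1, an activator of Rac GTPases, gave −1.30 (limma adjusted p = 0.0208), Sipa1l2 −1.25 (0.00282), Rab22a −1.22 (0.00172) and Tmem80 −1.20. At Prex1 the spleen high libraries had 25.7, 24.6 and 21.6 scaled summit reads and the spleen low libraries 15.7, 22.6 and 11.8, while the mesenteric high libraries had 12.95, 15.2 and 16.8 and the mesenteric low libraries 28.5, 21.6 and 24.6. Prkab2, 1700123O20Rik, Usp28 (−1.004), a deubiquitinase gene, and Dop1b followed. The axillary minus mesenteric difference was called at Ski (1.02, limma adjusted p = 0.00727) and Larp1b (0.93, limma adjusted p = 0.000608), where 0.0343% of all regions were called. The axillary minus spleen difference was called at 0 (0% of all regions) by limma, with 443 gene-end regions at an unadjusted p under 0.05 and a smallest adjusted p of 0.204.

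These differences between organs rested on single libraries and on the scale. The 19 became 10 without spleen low replicate 2, 9 and 8 without spleen high replicates 1 and 2, 9 and 12 without mesenteric low replicates 2 and 3, and 12 and 11 without mesenteric high replicates 1 and 3. At equal depth 1 remained of the 19. The 2 became 8 and 9 without spleen low replicates 1 and 3, 5 without spleen high replicate 3, 6 and 7 without axillary low replicates 2 and 3, and 1, 10 and 6 without axillary high replicates 1, 2 and 3.

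**Figure D4:**
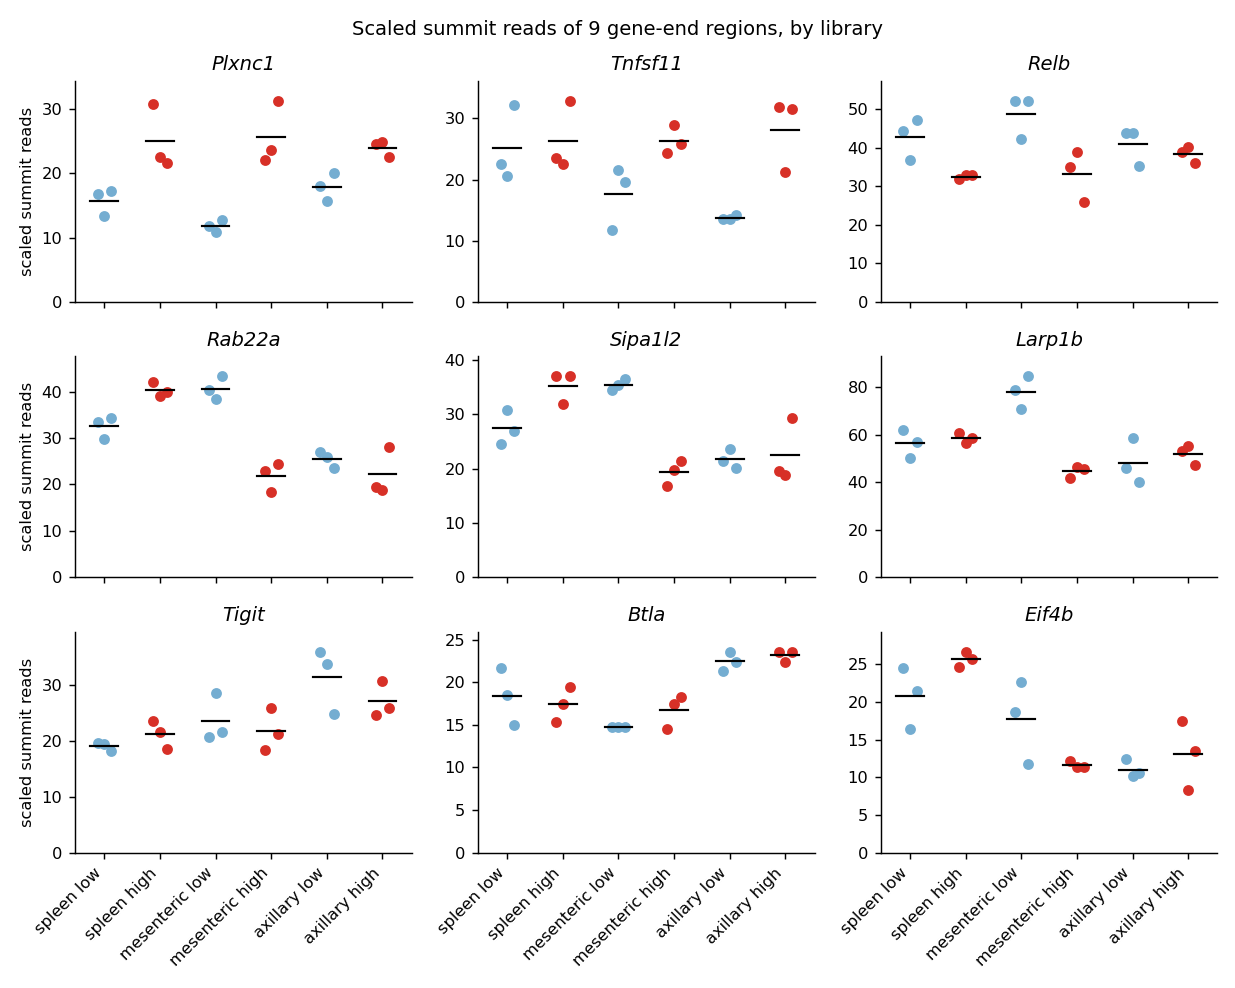
Scaled summit reads (y axis) in the 6 groups (x axis) at 9 gene-end regions, with 1 point per library, blue for low and red for high, and a bar at the mean of 3. At Plxnc1 every high library lies above every low library, at Rab22a, Sipa1l2 and Larp1b the mesenteric high libraries fall below the mesenteric low ones, and at Btla the axillary libraries lie at 21.4 or above.

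Organs differed in how many gene-end regions their libraries held. Mesenteric libraries had 8369 ± 491, spleen libraries 7802 ± 270 and axillary libraries 7187 ± 158 (SD, n = 6 each). The differences were 567 for mesenteric minus spleen, −615 for axillary minus spleen and −1182 for axillary minus mesenteric (exact permutation within levels, adjusted p = 0.01, 0.0075 and 0.0075). The gene-end share was 48.3% ± 0.949 in axillary, 46.3% ± 2.08 in spleen and 42.6% ± 4.17 in mesenteric libraries. Only axillary minus mesenteric passed, with 5.62 points (exact permutation p = 0.005, the smallest possible, adjusted 0.015). Mesenteric minus spleen gave −3.69 (adjusted p = 0.075, exact permutation) and axillary minus spleen 1.93 (adjusted p = 0.08, exact permutation), the latter becoming 2.82 without spleen low replicate 3 (p = 0.0075, exact permutation). At equal list length the axillary differences turned to −1.37 and −1.51 points (both p = 0.0075, exact permutation), and depth followed the same order, at 9.49, 13.1 and 14.4 reads per 10 kb in axillary, spleen and mesenteric libraries. At equal depth axillary minus mesenteric was 2.875 points (adjusted p = 0.045, exact permutation). Axillary minus spleen was then −0.18 and mesenteric minus spleen −3.06 (adjusted p = 0.77 and 0.075, exact permutation).

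The excess in width of gene-end peaks over other peaks also followed the organ. It was 194 bp ± 21.8 in mesenteric, 166 bp ± 10.8 in spleen and 140 bp ± 4.56 in axillary libraries (SD, n = 6 each), and each pair differed at the smallest exact permutation p, 0.005. The log2 ratio of folds followed the same order, at 0.46, 0.41 and 0.31, with p = 0.005 for each pair by the same exact test. The axillary peaks were from libraries with long fragment estimates in 5 of 6 cases, and the part of these in the widths was not tested.

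Presence of a peak between organs was tested at 7630 union regions in 5 to 13 libraries, of which 1507 were gene-end regions. The exact Fisher-Freeman-Halton test called 0 after adjustment (0% of all regions), with a smallest adjusted p of 0.0881. At an unadjusted p under 0.05 there were 233 gene-end regions (15.5%), against 11.2% of all regions. The organ with the most libraries was mesenteric for 158, or 10.5% of the gene-end regions tested, against 7.75% of all regions. It was the spleen for 31 (2.06%, against 1.56% of all regions) and axillary for 2 (0.133%, against 0.197% of all regions), with ties for 42. At equal list length the leading organ was mesenteric for 23, spleen for 36 and axillary for 12, of 85 in all. At equal depth it was mesenteric for 86, spleen for 31 and axillary for 4, of 142 in all. The part of list length in the mesenteric lead was not tested. The count of 233 was 350 to 406 without any 1 of 11 libraries (383, 400 and 406 without spleen low replicates 1, 2 and 3, 383, 387 and 385 without spleen high replicates 1, 2 and 3, 384, 383 and 383 without mesenteric low replicates 1, 2 and 3, and 350 without either axillary high replicate 1 or 2).

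The regions with the smallest unadjusted p are given as a description, since none passed after adjustment. Tmem159, a lipid droplet gene, had a peak at chr7:120102169-120102548 in 6 of 6 mesenteric and 0 other libraries (unadjusted exact p = 0.000162). Stat6, the signal transducer of interleukin-4 (chr10:127643666-127644117), Tlr3, an RNA sensor, Fbln1 and Fgf18 had peaks in 6 mesenteric and 1 other library. Atf3, a stress-induced transcription factor (chr1:191183121-191183671), had 6 spleen, 2 mesenteric and 0 axillary libraries. Cth, Ube3b and Zbtb40 had 6, 5 and 0. Tmsb10, which encodes a thymosin that binds actin (chr6:72956458-72956890), had 0 spleen, 4 mesenteric and 5 axillary libraries (unadjusted exact p = 0.0247).

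A few regions had a peak in a single group, and this was so of gene-end and of other regions. In mesenteric high libraries 20 regions had a peak in 3 of 3 libraries and in no other group, among them Cd83 and E2f1, 2 names picked after their values were seen. That is 0.198% of gene-end regions, against 131 other regions (0.569%). In spleen high libraries 4 gene-end and 13 other regions did so, the former at Cd53, Nap1l3, Nos1ap and Syk, a kinase of immune receptors. In spleen low libraries 1 gene-end region, that of Cebpd, and 3 other regions did so. Absent from 3 of 3 libraries of a single group, and present in all others, were 9 gene-end and 5 other regions in axillary low libraries (the former at Armcx2, Cmya5, Cr2, Dok1, Evi2, Itm2b, Lrrc63, Spop and Wdr73), 2 of each kind in axillary high libraries and 1 of each kind in spleen high libraries, the gene-end one at Irf4, a transcription factor induced by TCR signals. Mesenteric high libraries were the deepest group and axillary low libraries the shallowest, and the part of depth in these patterns was not tested.

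Peak heights differed between organs at 557, 290 and 97 gene-end regions in the 3 comparisons. Axillary minus mesenteric libraries gave 233 higher gene-end regions (4.15%, against 7.15% of all regions tested) and 324 lower ones (5.77%, against 4.39% of all regions). Axillary minus spleen libraries gave 64 higher (1.14%, against 3.36% of all regions) and 226 lower (4.03%, against 3.29% of all regions). Mesenteric minus spleen libraries gave 32 higher (0.57%, against 0.64% of all regions) and 65 lower (1.16%, against 1.29% of all regions). For the axillary nodes gene-end regions were more often lower than other regions were, at 4.03% against 1.97% relative to the spleen, and less often higher, at 1.14% against 7.32%. No test of these differences in share was made. At 3′ ends 5 regions were higher and 0 lower in axillary than in spleen libraries.

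The direction of these organ differences depended on scaling. Division by the genome background shifted the median of all regions by 0.33 for axillary minus spleen, 0.21 for axillary minus mesenteric and 0.12 for mesenteric minus spleen. The calls then became 2455 higher and 7 lower, 1153 higher and 27 lower, and 81 higher and 3 lower in the same order. At equal depth, with centring on shared regions, they were 18 higher and 31 lower, 75 and 75, and 3 and 5. With group means as the unit and level as a block, limma called 33, 107 and 0. Differences are therefore given relative to the typical shared region.

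**Figure D5:**
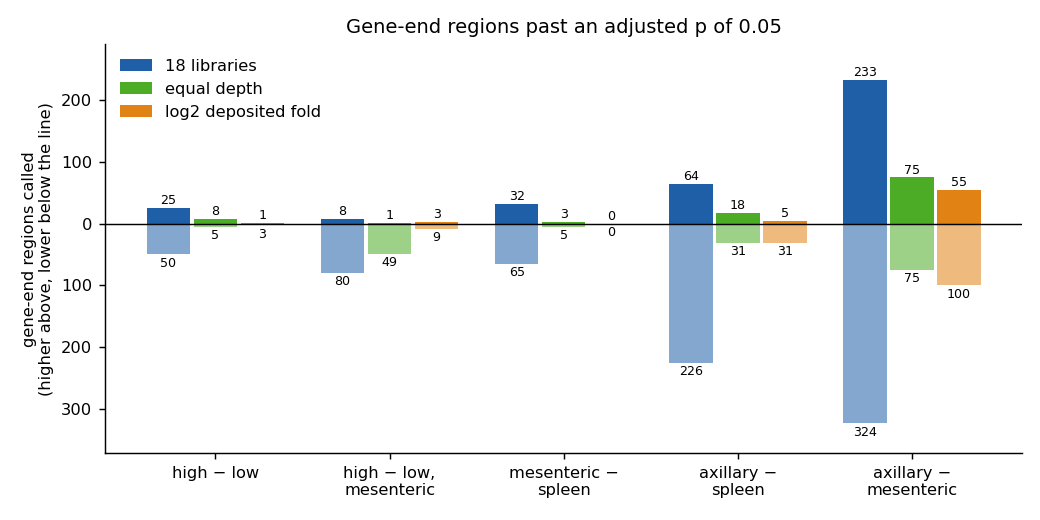
Gene-end regions past an adjusted p of 0.05 by limma (y axis; higher above and lower below the line) in 5 comparisons (x axis), from summit reads of 18 libraries (blue), from reads at equal depth (green) and from the log2 of the deposited fold (orange). Axillary minus mesenteric has the most calls in each of the 3 versions (557, 150 and 155).

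Among the regions called higher in axillary than in spleen libraries were those of Cd28, Tigit and Gpr18. The region of Cd28, the costimulatory receptor (chr1:60746052-60746589), had 22.5, 37.0 and 39.0 scaled summit reads (lowest, median and highest of 6) in axillary, 17.5, 22.1 and 26.7 in spleen and 22.6, 25.8 and 28.9 in mesenteric libraries. Axillary low replicate 2 lay within the range of the other organs, and the other 5 axillary libraries lay above it. The difference was 0.61 relative to the spleen (limma adjusted p = 0.000754) and 0.37 relative to the mesenteric nodes (limma adjusted p = 0.0409). Tigit (chr16:43663985-43664616), an inhibitory receptor, had 24.6, 28.3 and 36.0 in axillary, 18.2, 19.6 and 23.6 in spleen and 18.3, 21.5 and 28.5 in mesenteric libraries. Its difference was 0.53 relative to the spleen (limma adjusted p = 0.00543), and that relative to the mesenteric nodes, 0.37, missed the threshold (limma adjusted p = 0.0506). Gpr18, a receptor of lymphocytes, differed by 0.59 from the spleen and by 0.50 from the mesenteric nodes.

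Btla and Rgs1 separated the mesenteric from the axillary nodes. At Btla (chr16:45223486-45224723), a receptor that dampens TCR signals, the 6 axillary libraries had 21.4, 23.0 and 23.6, the spleen libraries 15.0, 17.96 and 21.6 and the mesenteric libraries 14.5, 14.8 and 18.3. All axillary libraries lay above all mesenteric ones (0.54, limma adjusted p = 0.00657). At Rgs1 (chr1:144248859-144249524), a brake on chemokine receptor signals, the mesenteric libraries had 20.6, 23.8 and 28.5, below all spleen (30.1, 33.9 and 38.0) and all axillary libraries (30.4, 35.7 and 39.3). The differences were −0.49 for mesenteric minus spleen (limma adjusted p = 0.00963) and 0.53 for axillary minus mesenteric (limma adjusted p = 0.00046). Cblb, a ubiquitin ligase that restrains TCR signals (chr16:52030995-52031993), had 74.4, 95.1 and 107.9 in axillary, 59.5, 69.8 and 79.4 in spleen and 55.6, 66.3 and 78.7 in mesenteric libraries. It was 0.44 and 0.48 higher in axillary than in spleen and mesenteric libraries (limma adjusted p = 7.89e-06 and 1.70e-07).

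By list, few regions were tested. Among 12 regions tested at negative regulators of TCR signal, 2 were higher in axillary than in spleen libraries (Cblb and Tigit), 3 were higher in axillary than in mesenteric libraries (Rgs1, Cblb and Btla) and 0 were lower in either, with medians of 0.07 and 0.11. Over all regions tested the medians were −0.01 and 0.01. Of all regions, 3.36% were higher and 3.29% lower in axillary than in spleen libraries. Relative to mesenteric libraries these shares were 7.15% and 4.39%. No list was tested against them. Among the 9 at genes of TCR signal and activation, 3 were higher in axillary than in spleen libraries, among them Cd28 and Nr4a1, and 2 higher than in mesenteric libraries (the same 2 genes), with medians of 0.12 and 0.17. The Nr4a1 region lies in the block of high local background described above, and the part of that background in its organ calls was not tested. The TCR complex (7 tested), naive and quiescence (9), interferon (10) and homing lists (2) had 0 calls by limma between organs. Of 7 regions at retinoic acid and TGF-beta genes, 1 was lower in axillary than in spleen libraries. Relative to mesenteric libraries 1 was higher and 1 lower. Ikzf2, the factor Helios of regulatory T cells, was 0.33 higher in axillary than in mesenteric libraries, the only call of 8 T helper and regulatory T cell factors. Of 24 ribosomal protein regions, 1 was lower in axillary than in spleen libraries, that of Rplp0 (−0.45), and 2 were lower than in mesenteric libraries, Rplp0 (−0.46) and Rpl18 (−0.39). Of 14 at general transcription and RNA processing genes, Med14 was higher (0.47) and Supt5 lower (−0.42) in axillary than in mesenteric libraries. The Cd8b1 region, the only one tested on the lists of other cell types, was not called in any comparison by limma.

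Among the regions called lower in axillary libraries were those of Eif4b, Rhoa and Ski. Eif4b, a translation initiation factor (chr15:102073519-102074143), had 16.4, 24.6 and 26.7 scaled summit reads in spleen libraries. Mesenteric libraries had 11.4, 11.99 and 22.6, and axillary libraries had 8.26, 11.5 and 17.5. Spleen and axillary libraries overlapped between 16.4 and 17.5. The difference was −0.97 for axillary minus spleen (limma adjusted p = 1.58e-05) and −0.70 for mesenteric minus spleen (limma adjusted p = 0.0107). Rhoa, a GTPase of the actin cytoskeleton, differed by −0.67 from the spleen (limma adjusted p = 0.000392), and all 6 axillary libraries (12.4, 18.9 and 21.6) lay below all 6 spleen libraries (23.6, 27.2 and 33.9). Ski differed by −0.63 from the spleen and −0.48 from the mesenteric nodes. Relative to the mesenteric nodes, Tmem199 and Trappc2l (−0.77 each), the dynein gene Dync1h1 (−0.75) and Cdk2ap2 (−0.74, limma adjusted p = 4.14e-06) were among the most lowered.

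Between mesenteric and spleen libraries, Slc16a6, a transporter of the monocarboxylate family, was most lowered and Trmt2b, a tRNA methyltransferase, most raised. Slc16a6 (chr11:109473234-109474129) had 11.8, 14.9 and 19.8 in mesenteric and 21.6, 24.6 and 32.2 in spleen libraries, without overlap (−0.73, limma adjusted p = 0.00256). Trmt2b (chrX:134276534-134277193) had 16.7, 19.8 and 25.1 against 10.3, 12.3 and 16.4, also without overlap (0.67, limma adjusted p = 0.00963). Trmt2b was also 0.58 higher in axillary than in spleen libraries. Among regions higher in axillary than in mesenteric libraries, Nedd9 (0.61), an adhesion scaffold, Prdx6 (0.58) and Otulin (0.56, limma adjusted p = 8.96e-06), a deubiquitinase of linear ubiquitin chains, led. At Otulin, whose region lies at a 3′ end (chr15:27596572-27597303), the axillary libraries had 46.0, 52.0 and 58.5, above all spleen (30.8, 37.1 and 40.8) and mesenteric libraries (31.5, 35.2 and 38.8).

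The number of calls between organs moved with single libraries. Mesenteric minus spleen calls, 97 with all libraries, were 46 without spleen low replicate 3, 42 and 62 without spleen high replicates 2 and 3, 59, 64 and 63 without mesenteric low replicates 1, 2 and 3, and 47, 27 and 47 without mesenteric high replicates 1, 2 and 3. Axillary minus spleen calls fell from 290 to 189 without spleen low replicate 1, and axillary minus mesenteric calls from 557 to 364 and 371 without mesenteric high replicates 1 and 3. Of the 233 regions higher in axillary than in mesenteric libraries 184 belonged to the third with the most reads, and of the 324 lower ones 73 did. For axillary minus spleen the third with the most reads held 46 higher and 73 lower calls. Promoter windows of the higher set had a median GC content of 60.7%, with a GC box in 66.0%, and those of the lower set 64.7% and 79.1%. In bulk libraries a smaller share of cells with an open region and a less open region per cell cannot be told apart.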

How the data were processed

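ATAC-seq peak lists of 18 libraries were analysed, 1 per sample, in 6 groups of 3 taken from the sample titles. Per the submitters' processing notes, Trimmomatic 0.33, Bowtie2, bedtools and MACS were used with build mm10. The notes name the other tools with versions and options not given in the sources used here, and the same holds for duplicates and read shifting. The deposited columns used were the fold (a ratio of summit reads to the local background), the −log10 p and the −log10 q; the deposited score was not used in a test. These peak values are the authors' own, each belongs to its peak, and they were compared within a list or turned back into reads.

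The lists held 314829 peaks, of which 314425 lay on chromosomes 1 to 19 or X and entered the merging. Summit and local background reads were recovered as the whole numbers that give the deposited fold and −log10 p (within 0.002), with 0.687% of peaks having 2 solutions. limma 3.58.1 (R 4.3.3) was fitted on log2(reads + 1) with 6 group means and a mean trend over 8756 regions, centred on the library median over them. Tested on simulated high and low libraries, 1.5-fold changes were called in 71% of 100 regions, 2-fold changes in 100%, and 0.117% of unchanged regions were called. The simulated reads held counting noise alone around a single mean per region, scaled by library, without organ differences. These rates therefore need not hold for the libraries here. Other steps used Python 3.11.15, numpy 2.4.6, pandas 2.3.3, scipy 1.17.1 and matplotlib 3.10.9. Permutation tests were exact and two-sided. Gene ends and promoter windows came from RefSeq tables of GRCm38.p6, the same build.

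Regions take the name of the gene with the nearer end. Named were the 8 of highest fold, the 8 widest, up to 8 per direction with the smallest presence p or the largest called log2 difference, every called list region and a few examples per list; regions on chromosome 18 were counted and not named, and a few other regions that met this rule are not reported here. The printed promoters were chosen after their values were seen. Where regions were named for large differences, a lack of overlap between groups follows in part from that choice. The regions, the 17 gene lists and the tests were chosen with earlier results of these data known, so no list is independent support.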

Additional observations from a re-analysis of the deposited data

Results flagged for a closer look

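The difference between high and low libraries was itself different in mesenteric and spleen libraries at 19 gene-end regions by limma, all more lowered in the mesenteric nodes. Among the 8 named, the difference of log2 differences was −1.30 at Prex1, −1.25 at Sipa1l2, −1.22 at Rab22a, −1.20 at Tmem80, −1.10 at Prkab2, −1.05 at 1700123O20Rik, −1.004 at Usp28 and −0.996 at Dop1b. Between axillary and mesenteric libraries it was different at 2, with 1.02 at Ski and 0.93 at Larp1b.

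Outside the chromosomes used, 404 peaks had been deposited. Of these 40 lay on the Y chromosome (2 to 3 per library, median fold 9.01), 125 on the mitochondrial genome (6 to 8 per library, median fold 2.75) and 239 on unplaced sequences (10 to 18 per library, median fold 8.28). They entered no comparison.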

How the results depend on the processing

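The 3 comparisons of gene-end with other regions kept their direction and passed under every alternative run (37.4 to 38.0 points, 163 to 168 bp and 0.39 to 0.40 when 1 library was left out). For the reproducible share the p is no test, as the regions counted are shared by all libraries. For width and fold, libraries with many regions in common were counted as separate. At equal list length, high minus low gave 0.0158 points of share and 7.78 regions, axillary minus spleen −1.37 and axillary minus mesenteric −1.51 points, 25 unadjusted presence calls between levels (10 with more high and 15 with more low libraries) and 85 between organs, and 8 axillary minus mesenteric interaction calls. At equal depth there were 142 unadjusted presence calls between organs, and summit-read calls were 13 for high minus low, 0, 50 and 3 in spleen, mesenteric and axillary libraries, 8, 49 and 150 for mesenteric minus spleen, axillary minus spleen and axillary minus mesenteric, and 1 and 0 for the mesenteric minus spleen and axillary minus mesenteric interactions. In the same order of comparisons, the log2 of the deposited fold gave 4; 1, 12 and 0; 0, 36 and 155; and 0 and 0. Scaling by the genome background gave 149; 0, 25 and 2; 84, 2462 and 1180; and 0 and 0. A −log10 p of at least 10 gave 2 calls in the spleen and 7 axillary minus mesenteric interaction calls, a distance of 500 bp gave 1 such interaction call, and a median of at least 20 summit reads gave 46 for high minus low, 47 for mesenteric minus spleen and 7 for that interaction. Group means gave 4 for high minus low and 0, 33 and 107 between organs. With a fragment estimate under 200 bp the high minus low share was −3.40 points (exact permutation p = 0.09) and mesenteric minus spleen gave 83 higher and 50 lower. Without the mesenteric libraries it was −1.03 points, with 6 unadjusted presence calls and 7 summit-read calls. At equal depth the share differed by −2.01 points and the number of gene-end regions by 237 between high and low libraries (exact permutation p = 0.021 and 0.00125). On the deposited fold the axillary differences of Nr4a1, Grasp and Atg101 reversed to −0.41, −0.16 and −0.25. The cause of these changes was not tested.

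Leaving out 1 library moved the share from −3.57 to −2.62 points (high minus low) and from 1.39 to 2.82 points (axillary minus spleen), unadjusted presence calls from 61 to 112 and from 302 to 406, high minus low calls from 35 to 64 (0 to 5 in spleen, 28 to 110 in mesenteric and 6 to 12 in axillary libraries), organ calls from 27 to 106, 189 to 307 and 364 to 584, and interaction calls from 8 to 26 (mesenteric minus spleen) and from 1 to 10 (axillary minus mesenteric). Adding the replicate block gave 85 high minus low calls against 75 and changed no other count by over 1.5 times; deviations of same-numbered libraries of different groups correlated at −0.036 to 0.0497, and 8 of 18 libraries correlated best with their own number, so the numbers were not taken as pairs. Of 3342 values of named regions under the alternatives, 2865 stayed on the same side of the threshold, 474 no longer passed and 3 reversed. These values include regions named by an unadjusted presence p, none of which had passed after adjustment. Regions not tested under an alternative were left out of it. The 2865 values are therefore no measure of how firm the calls are. The alternatives without the block around Nr4a1 (69 calls), without the mesenteric libraries, within short fragment estimates and with group means between organs were chosen after seeing the data. The depth of 8.48 to 16.6 reads per 10 kb, with a median of 15 reads at a summit, limits which regions pass as peaks and how small a difference can be detected.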
